A study of Homo sapiens with 6 samples.

Results

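The genes of glycolysis, the TCA cycle and the hypoxia response were examined in BE(2)-C cells, a human neuroblastoma line with amplified MYCN, given an siRNA against PCIF1. The list holds 59 genes chosen by name, and 57 of them were among the 13885 genes of the authors' deposited table. They fall into 22 of 23 listed genes of glycolysis with its glucose and lactate transporters, 21 genes of the TCA cycle and pyruvate entry, and 14 of 15 genes of the hypoxia-inducible factors (HIF), their regulators and targets without a glycolytic role. The lactate exporter gene SLC16A3 and the carbonic anhydrase gene CA9 were not analysed here. In the siPCIF1 group, 3 samples had received an siRNA against PCIF1 for 24 h, and in the siScramble group 3 samples had received a scrambled siRNA for the same time. Both groups were then given all-trans retinoic acid (ATRA) at 10 µM for 4 days, so no sample without ATRA enters the comparison. PCIF1 writes m6Am, a methylated adenosine beside the mRNA cap, and the labels call the line wild type. Poly(A) RNA was sequenced in strand-specific libraries, and the values analysed are those of the authors' DESeq2 comparison of the groups. Values per sample and the depth of each library were not analysed here, so each result below has the standard error (SE) of the fold change as its measure of spread. The labels do not state whether the 3 samples within a group were grown separately, and p-values then measure only the spread between these samples. In bulk RNA, less RNA per cell and fewer cells that express a gene cannot be told apart.

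The sign of every fold change was read as siPCIF1 over siScramble because PCIF1 itself was at -0.82 (SE 0.19) per the authors' deposited table. Its adjusted DESeq2 p in that table was 0.000167, but since the sign of PCIF1 set the direction, it cannot serve as a check of the knockdown. The header leaves the direction unstated, and its name lists siScramble first. If the table ran the other way, all directions below would turn. Adrenergic neuroblastoma markers were present, with all 12 listed markers, HAND2 and MYCN among them, in the authors' deposited table at mean normalised counts from 43.3 to 8104. Of 13 markers of blood, immune, endothelial, epithelial and fibroblast cells, 5 were in the authors' deposited table, at mean normalised counts from 12.2 to 270.

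Glycolysis splits glucose into pyruvate in the cytosol, and lactate dehydrogenase turns pyruvate into lactate. The pyruvate dehydrogenase complex instead feeds pyruvate as acetyl-CoA into the TCA cycle of the mitochondria, and its kinases hold it back. When oxygen falls, the prolyl hydroxylases of the EGLN family and the ubiquitin ligase subunit VHL no longer remove the HIF alpha subunits, which then pair with ARNT and raise the transcription of glycolytic genes, of PDK1 and of genes such as VEGFA and BNIP3. In neuroblastoma, MYCN is known to raise the expression of many glycolytic genes, and EPAS1 (HIF-2 alpha) has been studied in the sympathetic lineage from which the tumour arises. MYCN itself was at 1.09 (SE 0.16) per the authors' deposited table, with an adjusted DESeq2 p of 3.94e-10. Its part in the values below was not tested.

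The largest changes among members were in the isocitrate step, PCK2, NDRG1, PDK1 and the HIF alpha genes HIF1A and EPAS1. The enzymes of the glycolytic chain lay between -0.46 and 0.37 on the log2 scale of the authors' deposited table. Counted as changed at an adjusted DESeq2 p under 0.05 in the authors' deposited table, 12 members rose and 9 fell. These are 21.1% and 15.8% of the 57 members. Over all genes of the authors' deposited table, 34% were called by the same DESeq2 rule, 16.3% as higher and 17.7% as lower. The share of members called, 36.8%, lay near that background, so the counts alone do not set the list apart. After division of the Wald statistics by their robust SD over the authors' deposited table, 2.44, 0 of the 57 members passed, and PCIF1 did not pass either. True changes enlarge that SD, and the share of all genes that passed in this setting is not given here. The 0 therefore does not set the members apart from other genes. Among glycolysis genes 4 rose and 2 fell, and 16 did not pass, with a median log2 fold change of -0.01 in the authors' deposited table. The authors' deposited table has 5 TCA and pyruvate genes higher and 5 lower, around a median of -0.06, and 3 HIF genes higher and 2 lower, around 0.19. The median of all genes there was 0.01.

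**Figure D1:**
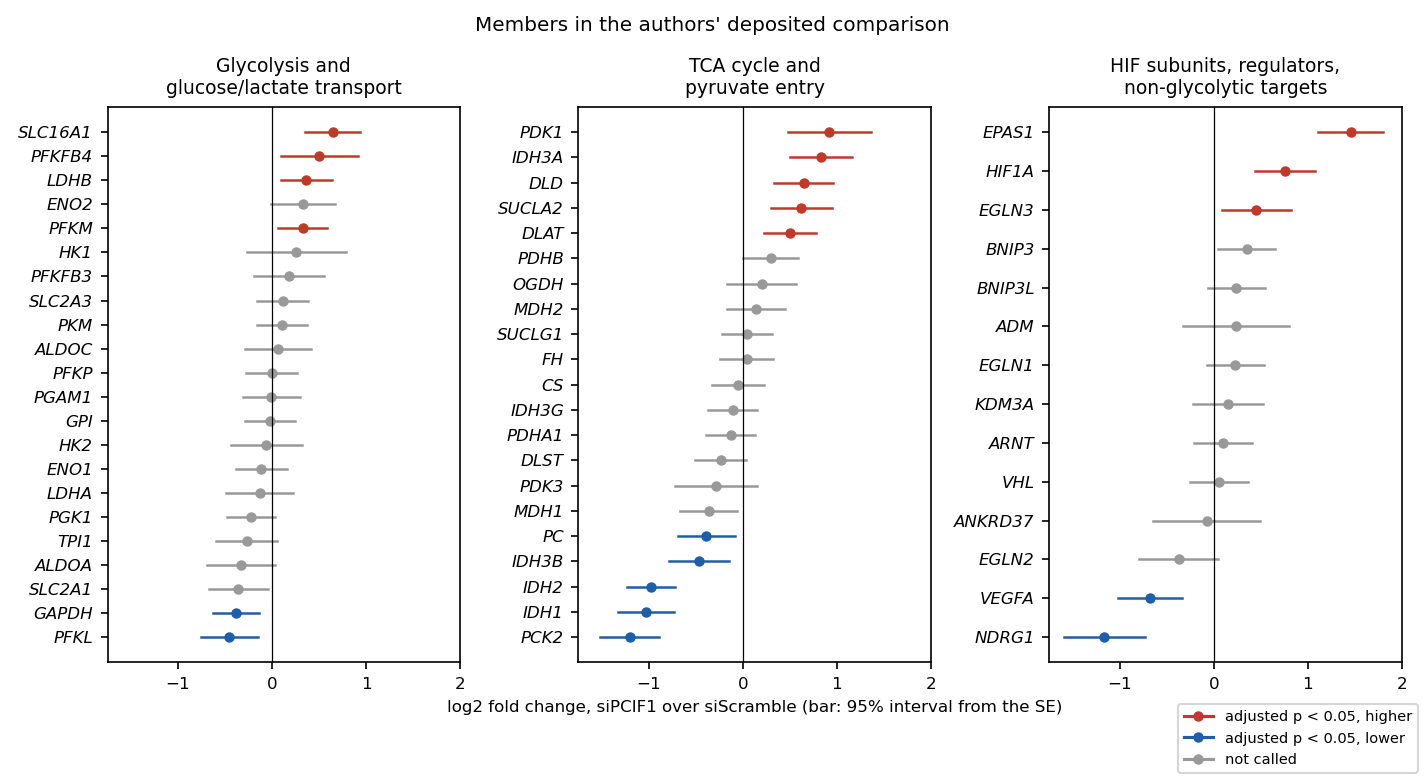
Log2 fold change of each member, siPCIF1 over siScramble, in the authors' deposited table, with a bar for the 95% interval from its SE and 1 panel for each group of members. Coloured genes passed an adjusted p of 0.05; the glycolysis panel runs from -0.46 to 0.65, the TCA panel from -1.20 to 0.92 and the HIF panel from -1.16 to 1.46.

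The median absolute log2 fold change from the authors' deposited table was 0.24 for glycolysis, 0.36 for the TCA cycle and pyruvate entry and 0.30 for the HIF group, against 0.32 over all genes. The glycolysis genes lay in the narrowest range, as the plot of their distribution shows. No test of that difference was made, since genes are not replicates.

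**Figure D2:**
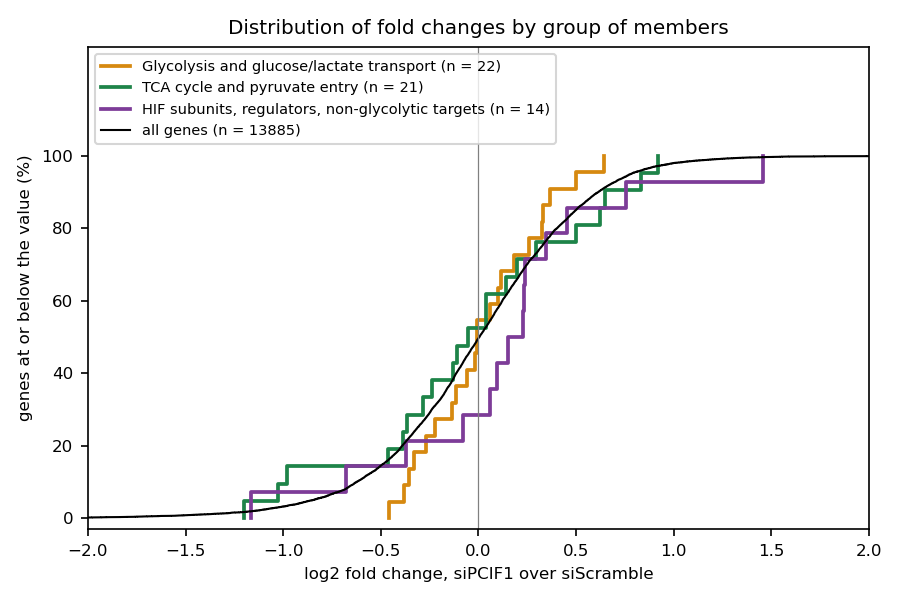
Cumulative share of genes (%) at or below each log2 fold change, siPCIF1 over siScramble, for the 3 groups of members (coloured steps) and for all 13885 genes (black). The glycolysis curve is the steepest, with no member under -0.46 or above 0.65, while the TCA and HIF curves reach -1.20 and 1.46.

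PCIF1 acts only on transcripts whose first base after the cap is A, so annotated starts of changed members are shown before their values. RefSeq (GRCh38.p14) gave a start for 50 of the 57 members. The windows are those of the 12 called members with the smallest adjusted DESeq2 p among those with such a start, with 10 bases on either side. The capital marks the annotated first base.
EPAS1 (chr2:46297397-46297417, plus strand): cgggagctttAcactcgcgag
HIF1A (chr14:61695503-61695523, plus strand): tcagctcctcAgtgcacagtg
IDH3A (chr15:78149352-78149372, plus strand): gcgcttgcgcActgccgctgc
PDK1 (chr2:172556080-172556100, plus strand): ctcacgtaccActcggcagag
DLD (chr7:107891097-107891117, plus strand): ctcgtgcggtAgaaccgcgcg
SUCLA2 (chr13:48001263-48001283, minus strand): ggtccgactcAgaaatggcgg
DLAT (chr11:112025398-112025418, plus strand): cggcaacgccGctgctcttgg
IDH1 (chr2:208254448-208254468, minus strand): cgcgtccgccAgggggcgtgg
IDH2 (chr15:90100611-90100631, minus strand): atcttttcctAttttgcaacg
PCK2 (chr14:24094301-24094321, plus strand): agcctctgctGtggctcgctt
GAPDH (chr12:6535254-6535274, plus strand): gtgcatccctGtccggatgct
PFKL (chr21:44300043-44300063, plus strand): cggggacggcGacgcggcgca

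Of these 12 starts 8 have an A, 6 of the 7 members that rose and 2 of the 5 that fell. Over all members with a start and a call, 7 of 11 that rose and 3 of 7 that fell have an A. Of all 50 members with a start, called or not, 24 (48.0%) have an A, near the 45.5% of the 9825 genes of the table with a RefSeq start. The median log2 fold change of members starting with A was 0.17 in the authors' deposited table and that of the other members -0.09, against 0.02 and -0.02 over all genes. These starts are annotated, not measured in BE(2)-C cells. The RefSeq start lay within 50 bases of that of the main GENCODE 29 transcript for only 19 of the 50 members. For IDH2, GAPDH and DLAT it lay 1883, 1337 and 594 bases away. For PCK2, DLD, IDH1, PDK1 and SUCLA2 it lay 173, 137, 136, 121 and 81 bases away, so these first bases depend on the annotation.

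Of the 3 glucose and lactate transporters measured, SLC16A1 passed. SLC16A1, which encodes the monocarboxylate transporter MCT1, rose by 0.65 (SE 0.15) on the log2 scale per the authors' deposited table, with an adjusted DESeq2 p of 0.000151 at a mean normalised count of 923. Its level was 156% of that in siScramble samples, with a 95% interval of 128 to 192% from the SE in the authors' deposited table. It was the called glycolysis member with the largest change. The glucose transporter genes SLC2A1 and SLC2A3 were at -0.36 (SE 0.16) and 0.11 (SE 0.14) per the authors' deposited table without passing, with adjusted DESeq2 p of 0.0678 and 0.567.

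Within the glycolytic chain, changes of opposite sign sat beside each other in the same enzyme family. PFKM, the muscle-type phosphofructokinase, rose by 0.33 (SE 0.13), and PFKL, the liver type, was at -0.46 (SE 0.16) per the authors' deposited table, with adjusted DESeq2 p of 0.0418 and 0.0134. The platelet type PFKP was at -0.004 (SE 0.14) per the authors' deposited table. Set per kb of main transcript, the mean normalised count of PFKM was 559, that of PFKP 170 and that of PFKL 91.6, from the authors' deposited table. The isozyme with the highest level per length was therefore the one that rose. Whether the isozymes differ from each other in response was not tested, although the 95% intervals of PFKM, 105 to 150% of the siScramble level, and PFKL, 59.1 to 90.0%, in the authors' deposited table do not overlap. Once a trend of fold change across all genes with GC content, transcript length and mean count was removed, PFKL was at -0.16, with a readjusted DESeq2 p of 0.506. Here and below, a readjusted DESeq2 p is not an output of DESeq2. It was computed from the trend-removed fold change and the SE implied by the deposited Wald statistic, then adjusted again by Benjamini-Hochberg.

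The lactate dehydrogenase pair was dominated by LDHB, whose product favours the use of lactate. LDHB rose by 0.37 (SE 0.14) per the authors' deposited table with an adjusted DESeq2 p of 0.0302, and LDHA was at -0.13 (SE 0.18) with 0.610. Per kb of main transcript the mean normalised count was 4777 for LDHB and 89.9 for LDHA from the authors' deposited table, so LDHB made up 98.2% of the pair. GENCODE 29 names 6 LDHA pseudogenes and 3 LDHB pseudogenes, none of them in the table, and how reads that match several copies were counted bears on this share and was not tested. GENCODE 29 places another gene, AC010197.2, on the same strand over 33.4% of the exonic bases of LDHB. The sources used here do not say how reads in shared exons were counted.

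GAPDH, widely used as a reference gene, was the other glycolysis member that fell. It was at -0.38 (SE 0.12) per the authors' deposited table with an adjusted DESeq2 p of 0.00909, the smallest among the enzymes of the chain, at a mean normalised count of 70000.3. Its sign depended on the trend across all genes: with that trend taken out of the authors' deposited table, GAPDH was at 0.15, with a readjusted DESeq2 p of 0.397. GENCODE 29 names 62 GAPDH pseudogenes, 3 of them in the table, and reads that could match several copies make the value less certain.

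Most remaining steps of the chain did not pass. TPI1, PGK1, ENO1, PKM, GPI and PGAM1, which catalyse steps between glucose 6-phosphate and pyruvate, ranged from -0.27 to 0.10 in the authors' deposited table, with adjusted DESeq2 p of 0.183 or more. Their mean normalised counts in the authors' deposited table ran from 2041 for PGAM1 to 13377 for PKM, with SEs of 0.13 to 0.17, so for PKM the 95% interval was 89.3 to 129% of the siScramble level. The hexokinases HK1 and HK2 were at 0.26 (SE 0.27) and -0.06 (SE 0.19) per the authors' deposited table. HK1 had the widest SE of the group despite a mean normalised count of 1416 in the authors' deposited table, and its 95% interval ran from 83.0 to 173% of the siScramble level. The neuronal enolase ENO2 was at 0.33 (SE 0.17) per the authors' deposited table without passing (adjusted DESeq2 p = 0.131).

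Aldolase A, usually an abundant enzyme, had a low count here. ALDOA was at -0.33 (SE 0.18) per the authors' deposited table at a mean normalised count of 136, and ALDOC, the brain form, at 0.06 (SE 0.18) at 472, with adjusted DESeq2 p of 0.158 and 0.825. GENCODE 29 places the gene AC093512.2 on the same strand over 42.3% of the exonic bases of ALDOA, and that gene had a mean normalised count of 31.8 in the authors' deposited table. Its part in the low count of ALDOA was not tested. PFKFB4, which makes and breaks the phosphofructokinase activator fructose 2,6-bisphosphate, rose by 0.50 (SE 0.21) per the authors' deposited table at an adjusted DESeq2 p of 0.0499, just inside the threshold. Its relative PFKFB3 was at 0.18 (SE 0.19) per the authors' deposited table without passing (adjusted DESeq2 p = 0.486).

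**Figure D3:**
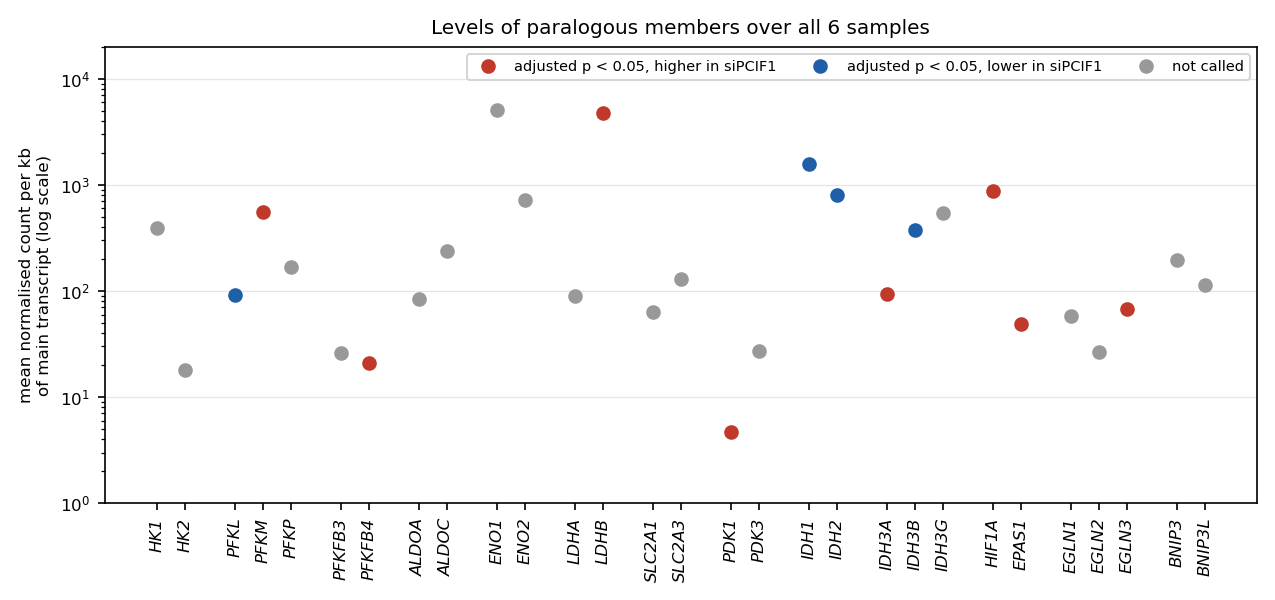
Mean normalised count per kb of main transcript (log scale) over all 6 samples for members that are paralogs of each other or subunits of the same enzyme, coloured by their call in the authors' deposited table. LDHB, ENO1, HK1, PFKM, IDH1 and HIF1A stand above their partners, and the 3 IDH3 subunits carry different calls.

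Other genes of the glycolytic pathway, 27 of which were listed apart from the members, also went both ways. Of 15 in the authors' deposited table, 2 rose and 2 fell by adjusted DESeq2 p, with a median of -0.12. These calls make 26.7% of the 15, against 34% of all genes, 16.3% higher and 17.7% lower. SLC16A7, the monocarboxylate transporter MCT2, rose by 1.05 (SE 0.19) and the phosphoglucomutase PGM2 by 0.99 (SE 0.18) per the authors' deposited table. The sugar transporter genes SLC2A6 and SLC2A8 were at -0.49 (SE 0.15) and -0.55 (SE 0.19) per the authors' deposited table. With the same trend removed, PGM2 kept its call at 0.77, while SLC16A7 at 0.42, SLC2A6 at -0.15 and SLC2A8 at -0.28 did not pass, from the authors' deposited table. Their readjusted DESeq2 p was 0.0907 for SLC16A7 and above that for both SLC2A genes.

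At the entry of pyruvate into the mitochondria, some subunits of the pyruvate dehydrogenase complex were called higher as deposited, as was PDK1, 1 of the kinases that inhibit it. DLD, the E3 subunit that other dehydrogenases share, rose by 0.65 (SE 0.16) and DLAT, the E2 subunit, by 0.50 (SE 0.14) per the authors' deposited table, with adjusted DESeq2 p of 0.000425 and 0.00215. The E1 subunits PDHA1 and PDHB were at -0.13 (SE 0.13) and 0.30 (SE 0.15) per the authors' deposited table without passing, with adjusted DESeq2 p of 0.489 and 0.109. PDK1, the kinase that is also a HIF target, rose by 0.92 (SE 0.23) per the authors' deposited table, or to 189% of the siScramble level (95% interval 139 to 257%), with adjusted DESeq2 p = 0.000450. Its mean normalised count was only 66.4, and PDK3, at 52.7, was at -0.28 (SE 0.22) per the authors' deposited table (adjusted DESeq2 p = 0.341). Per kb of main transcript PDK1 was the lowest of these kinases, at 4.68, against 27.4 for PDK3 and 59.1 for PDK2. By count alone PDK1 lay above PDK3. Its place below PDK3 thus rests on the annotated transcript lengths, 14193 bases for PDK1 and 1921 for PDK3, which were not measured in these cells. PDK2, which is not a member, was called lower as deposited, at -0.42 (SE 0.17). With the same trend removed, PDK1 from the authors' deposited table was at 0.51, with a readjusted DESeq2 p of 0.0832. DLD and DLAT were then at 0.40 and 0.36 from the authors' deposited table, just inside the threshold with readjusted DESeq2 p of 0.0471 and 0.0473. The main transcript of PDK1 is long, 14193 bases, and has a GC content of 39.8%.

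Further genes of this step and of the cycle were both higher and lower. Of 27 further pyruvate entry and TCA genes in the authors' deposited table, 4 rose and 5 fell by adjusted DESeq2 p, with a median of -0.01. The share called, 33.3%, lay near the 34% of all genes, 16.3% higher and 17.7% lower. PDP2, a phosphatase that reactivates the complex, rose by 0.64 (SE 0.17) and the structural subunit PDHX by 0.43 (SE 0.16) per the authors' deposited table. Both subunits of the mitochondrial pyruvate carrier were called lower as deposited, MPC1 at -0.45 (SE 0.16) and MPC2 at -0.38 (SE 0.15) per the authors' deposited table, as did the kinase PDK2, at -0.42 (SE 0.17). ME2, the mitochondrial malic enzyme, rose by 0.40 (SE 0.16) per the authors' deposited table. GOT1, the cytosolic aspartate aminotransferase, had the largest change of these genes, at -1.49 (SE 0.16) per the authors' deposited table. SDHB, the iron-sulfur subunit of succinate dehydrogenase, was at -0.40 (SE 0.16) per the authors' deposited table, the other gene of this list that fell. With the trend removed, 2 of the 5 lower genes kept their call, GOT1 at -1.32 and MPC2 at -0.45, and 1 of the 4 higher ones did, PDP2 at 0.46, from the authors' deposited table. MPC1, PDK2, SDHB, PDHX and ME2 were then at -0.37, -0.20, -0.21, 0.33 and 0.05 from the authors' deposited table, with readjusted DESeq2 p of 0.0747, 0.429, 0.337, 0.118 and 0.862. In that setting 2 further genes of this list passed as lower and 1 as higher.

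PCK2, the mitochondrial phosphoenolpyruvate carboxykinase, had the lowest fold change of all members. It was at -1.20 (SE 0.16) per the authors' deposited table, or 43.5% of the siScramble level (95% interval 35.0 to 54.0%), with adjusted DESeq2 p = 3.82e-12 (ENSG00000100889.11, chromosome 14, 24094053 to 24110598 in GRCh38). The gene is known as a target of ATF4, the transcription factor of the integrated stress response. PC, the pyruvate carboxylase that refills oxaloacetate, was at -0.39 (SE 0.16) per the authors' deposited table with an adjusted DESeq2 p of 0.0409. Without the trend, PCK2 from the authors' deposited table was at -0.85 and still passed, with a readjusted DESeq2 p of 2.68e-06, whereas PC was at -0.12 with 0.650.

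The isocitrate dehydrogenase genes took both signs. Both NADP-dependent enzymes fell by about the same amount: IDH1, the cytosolic and peroxisomal one, was at -1.03 (SE 0.15) per the authors' deposited table, or 49.0% of the siScramble level (95% interval 39.8 to 60.3%). IDH2, the mitochondrial one, was at -0.98 (SE 0.13) per the authors' deposited table, or 50.8% (95% interval 42.6 to 60.5%). Their adjusted DESeq2 p in the authors' deposited table were 7.32e-10 and 1.78e-12. IDH1 lies on chromosome 2 from 208236227 to 208266074 and IDH2 on chromosome 15 from 90083045 to 90102504 in GRCh38. With mean normalised counts of 3818 and 2158 in the authors' deposited table, they stood among the TCA members with the highest counts.

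The NAD-dependent enzyme of the cycle has 3 kinds of subunit, and their values took both signs. The catalytic alpha subunit IDH3A rose by 0.83 (SE 0.17) per the authors' deposited table, to 178% of the siScramble level (95% interval 142 to 224%, adjusted DESeq2 p = 1.24e-05). IDH3B was at -0.46 (SE 0.16) per the authors' deposited table, or 72.5% (95% interval 58.1 to 90.4%, adjusted DESeq2 p = 0.0168). IDH3G was at -0.11 (SE 0.13) per the authors' deposited table without passing (adjusted DESeq2 p = 0.572). The intervals of IDH3A and IDH3B do not overlap, and a test between subunits was not made. Per kb of main transcript IDH3A had the lowest mean normalised count of the subunits, 94.0, against 378 for IDH3B and 539 for IDH3G, from the authors' deposited table. Without the trend IDH3A from the authors' deposited table was at 0.70 and passed, with a readjusted DESeq2 p of 0.000425, and IDH3B was at -0.21 with 0.371. ACSBG1 lies on the opposite strand over 38.2% of the exonic bases of IDH3A, and the sources used here do not say which strand setting the counts had.

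Among the other members of the cycle, SUCLA2 passed and 7 did not. SUCLA2, the ADP-forming succinyl-CoA synthetase subunit, rose by 0.62 (SE 0.16) per the authors' deposited table with an adjusted DESeq2 p of 0.00110, while its partner SUCLG1 was at 0.04 (SE 0.14). Citrate synthase (CS), OGDH and DLST of the oxoglutarate dehydrogenase complex, fumarase (FH), and the malate dehydrogenases MDH1 and MDH2 ranged from -0.36 to 0.20 in the authors' deposited table. None of these 6 passed at an adjusted DESeq2 p of 0.05, the nearest being the cytosolic MDH1 at 0.0541, just outside the threshold. DLD, which rose, is the E3 subunit of the oxoglutarate complex too.

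The HIF alpha subunits were both higher. EPAS1, which encodes HIF-2 alpha, rose by 1.46 (SE 0.18) per the authors' deposited table, the largest rise of all members, to 275% of the siScramble level (95% interval 216 to 350%), with adjusted DESeq2 p = 2.12e-14 (ENSG00000116016.13, chromosome 2, 46293667 to 46386703 in GRCh38). HIF1A rose by 0.76 (SE 0.16) per the authors' deposited table, to 169% with a 95% interval of 136 to 211% (adjusted DESeq2 p = 3.02e-05; ENSG00000100644.16, chromosome 14, 61695513 to 61748259). At 872 per kb of main transcript, the mean normalised count of HIF1A exceeded that of EPAS1, 48.8, in the authors' deposited table. Both still passed without the trend, EPAS1 at 1.52 and HIF1A at 0.52 from the authors' deposited table, with readjusted DESeq2 p of 2.12e-15 and 0.00891. HIF alpha activity is set mainly by protein stability, which was not measured.

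Of the other genes of oxygen sensing, EGLN3 passed. The partner subunit ARNT was at 0.10 (SE 0.16) and VHL at 0.06 (SE 0.16) per the authors' deposited table, and neither passed (adjusted DESeq2 p = 0.677 and 0.808). Of the prolyl hydroxylases, EGLN3, itself induced by HIF, rose by 0.45 (SE 0.19) per the authors' deposited table with an adjusted DESeq2 p of 0.0462. EGLN1 and EGLN2 were at 0.23 (SE 0.15) and -0.37 (SE 0.21) per the authors' deposited table without passing (adjusted DESeq2 p = 0.249 and 0.174). RAB4B-EGLN2 covers 30.6% of the exonic bases of EGLN2 on the same strand. Without the trend EGLN3 from the authors' deposited table was at 0.43, with a readjusted DESeq2 p of 0.0777. Of these 7 regulators and subunits, the authors' deposited table has 3 higher and 0 lower by DESeq2 (3 had an unadjusted p under 0.05), beside 16.3% and 17.7% of all genes. With the trend removed, 2 were higher and 0 lower, beside 12.2% and 12.7% of all genes.

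Among targets of HIF without a glycolytic role, NDRG1 and VEGFA were lower. Of 7 measured targets, the authors' deposited table has 0 higher and 2 lower by adjusted DESeq2 p (3 had an unadjusted p under 0.05). With 16.3% of all genes higher and 17.7% lower, counts of this size over 7 genes lie near the background. NDRG1, a stress- and hypoxia-induced gene linked to differentiation, was at -1.16 (SE 0.22) per the authors' deposited table, or 44.7% of the siScramble level (95% interval 33.1 to 60.2%), with adjusted DESeq2 p = 2.17e-06. VEGFA, the vascular growth factor, was at -0.68 (SE 0.18) per the authors' deposited table, or 62.4% with an interval of 49.2 to 79.2% (adjusted DESeq2 p = 0.000738). NDRG1 was at -1.04 without the trend and still passed (4.00e-05 as readjusted DESeq2 p from the authors' deposited table), while VEGFA was at -0.35 with 0.138.

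The mitophagy receptors BNIP3 and BNIP3L were at 0.35 (SE 0.15) and 0.24 (SE 0.15) per the authors' deposited table without passing (adjusted DESeq2 p = 0.0655 and 0.228). The histone demethylase KDM3A, the peptide hormone gene ADM and ANKRD37 were at 0.15, 0.24 and -0.08 per the authors' deposited table, with adjusted DESeq2 p of 0.567 or more. ADM and ANKRD37 had mean normalised counts of 14.5 and 12.4 and SEs of 0.29 in the authors' deposited table, so only large changes could have been detected for them. For ANKRD37 the 95% interval was 63.8 to 141% of the siScramble level in the authors' deposited table. Its SE lay near the largest SE of all genes, 0.295, so this interval may be too narrow. UFSP2 lies on the opposite strand over 35.2% of its exonic bases, and BNIP3 has 39 named pseudogenes in GENCODE 29.

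HIF binds the short core RCGTG, which is ACGTG or GCGTG. Such matches stand in the promoters of called and uncalled members alike. In windows from 250 bases before to 50 after the RefSeq start, read on both strands, ACGTG or GCGTG was found in 37 of 50 members (74.0%), against 64.5% of 9825 promoters of the table. ACGTG alone was found in 38.0% of members and 27.1% of all promoters, and the MYC-type E-box CACGTG, which contains ACGTG, in 16.0% and 10.1%. By group, ACGTG or GCGTG was in 16 of 20 glycolysis genes, 14 of 20 TCA genes and 7 of 10 HIF genes. The composite ATF4 element TGATGNAAN was found in 0 of 50 members and in 1.57% of all promoters; PCK2, at its RefSeq start, was among those without a match in this window. The following windows show, for the HIF targets with a RefSeq start and for 5 members of the pathway that are HIF targets, the match upstream of the start that lies nearest, ACGTG before GCGTG. Capitals mark the core, which reads CACGT where it lies on the reverse strand.
PDK1 (chr2:172556074-172556094, plus strand): acgtccctCACGTaccactcg
PGK1 (chrX:78104057-78104077, plus strand): ggaagccgCACGTctcactag
LDHA (chr11:18394482-18394502, plus strand): ggttcccgCACGTccgccggc
ALDOC (chr17:28576911-28576931, minus strand): ggaggagtCACGTagctctgc
ENO1 (chr1:8878746-8878766, minus strand): ctgaggggGCGTGccccggag
BNIP3 (chr10:131982044-131982064, minus strand): cgcgccgcACGTGccacacgc
ANKRD37 (chr4:185396690-185396710, plus strand): gtttgtgtACGTGcggccgtg
KDM3A (chr2:86441337-86441357, plus strand): gaggctgtGCGTGtcttgtga
ADM (chr11:10304964-10304984, plus strand): aggagcgcGCGTGgctgagga

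The genes of these windows had unlike values. PDK1, whose core begins 8 bases before the start, rose, and the other 8 did not pass, with log2 fold changes from -0.22 to 0.35 in the authors' deposited table (adjusted DESeq2 p of 0.0655 or more). The genes of these windows were chosen by name, so they do not stand for all members with a match. Among members with a RefSeq start, ACGTG or GCGTG was found in 8 of 11 that rose and 6 of 7 that fell. PFKFB4, which rose, and GAPDH, which fell, are among these and are not shown. A match describes the letters only and does not show a bound site.

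Beyond the members, 42 further hypoxia genes were listed, and 35 of them were in the authors' deposited table. Of these 5 rose and 8 fell by adjusted DESeq2 p, around a median of 0.01 per the authors' deposited table. With 37.1% called, the list lay near the 34% of all genes, 16.3% higher and 17.7% lower. The decreases with the smallest p were HMOX1, the inducible heme oxygenase, at -3.70 (SE 0.19), the collagen prolyl hydroxylase P4HA2 at -1.40 (SE 0.15), CITED2, which competes with HIF for its coactivator, at -1.29 (SE 0.17), and DDIT4, an inhibitor of mTORC1, at -0.87 (SE 0.15) per the authors' deposited table. The increases with the smallest p were the transferrin receptor TFRC at 0.79 (SE 0.14), the histone demethylase KDM4C at 0.66 (SE 0.14), the adenylate kinase AK4 at 1.33 (SE 0.28) and CUL2, the cullin of the VHL ligase, at 0.48 (SE 0.16) per the authors' deposited table. AK4 had a mean normalised count of only 21.6 in the authors' deposited table. Hypoxia is not the only signal to which genes of this list respond, whether they rose or fell here. With the trend removed, 3 of the 5 higher and 7 of the 8 lower genes kept their call. CUL2 did not, at 0.17 from the authors' deposited table with a readjusted DESeq2 p of 0.503, and DDIT4 kept it at -0.50 with 0.00567.

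A trend of fold change with gene properties ran through the whole comparison and touched the groups of members unequally. Across genes of the authors' deposited table, Spearman's correlation of the log2 fold change with the GC content of the main transcript was -0.42 and with its length 0.24, a description across genes that share libraries. The median GC content was 54.9% for glycolysis members, 46.3% for TCA members and 47.2% for the HIF group, against 48.8% over all genes. With a quadratic trend in GC content, log length and log mean expression taken out of the authors' deposited table, the median log2 fold change became 0.25 for glycolysis, 0.05 for the TCA group and 0.03 for the HIF group, and 0.03 over all genes. In that setting 6 glycolysis members were higher and 1 lower, 4 and 3 TCA members, and 2 and 1 HIF members, by the readjusted DESeq2 p computed here from the authors' deposited table. Of the calls as deposited, 4 of 4 higher and 0 of 2 lower glycolysis members, 4 of 5 and 3 of 5 TCA members, and 2 of 3 and 1 of 2 HIF members were kept. The background was then 24.9% of genes called, 12.2% higher and 12.7% lower. PKM, ENO2 and PGK1 passed there and not as deposited, PKM at 0.50, ENO2 at 0.57 and PGK1 at -0.37 from the authors' deposited table (readjusted DESeq2 p 0.00208, 0.00701 and 0.0222). The source of the trend was not tested.

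**Figure D4:**
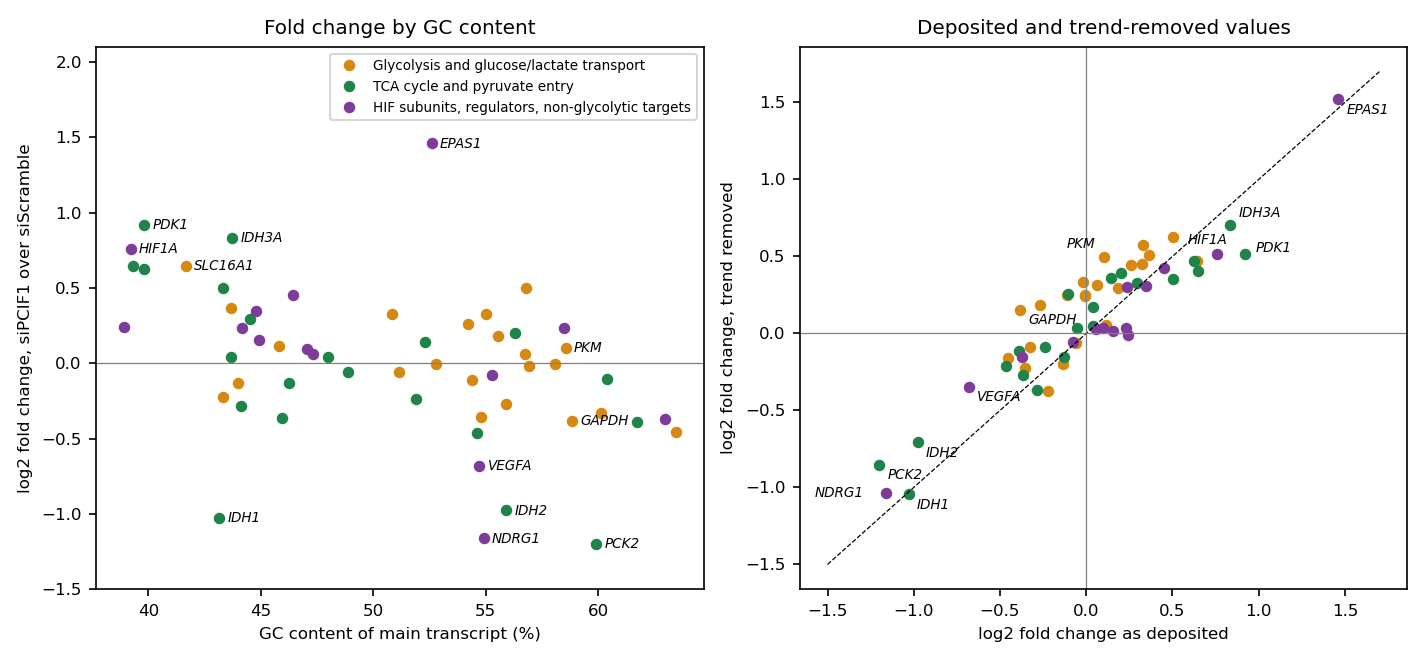
Left, log2 fold change of each member (siPCIF1 over siScramble, authors' deposited table) against the GC content (%) of its main transcript; right, the value with the trend in GC content, length and expression removed against the deposited value, with the dashed line marking equality. PCK2, IDH1, IDH2, NDRG1, IDH3A, HIF1A and EPAS1 keep their sign and call, and GAPDH crosses from -0.38 to 0.15.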

How the data were processed

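Per the labels, 6 poly(A)-selected, strand-specific RNA-seq samples of BE(2)-C cells, 3 per group, were made. The submitters' processing notes list, for the authors' work, hg38, DESeq2, HTSeq, STAR 2.7.10a, deepTools, cutadapt 3.7 and bcl2fastq 2.20. Neither annotation nor strand setting of that counting is given in the sources used here. The authors deposited 1 table with 6 columns: a mean normalised count over all samples (a signal), a log2 fold change with its SE (log2), a Wald score, a p-value and an adjusted p-value. Tested on the file, the adjusted values equal a Benjamini-Hochberg adjustment over the 13885 genes. The SE flattens out at 0.295, as with fold changes shrunken towards 0 under a normal prior. Fold changes may thus be understated; an estimate without shrinkage was 1.05 to 1.42 times the printed one for 51 members with a mean of at least 100. Since library depths are unknown, the SE stands for precision, 0.12 to 0.29 for members. Such a prior limits the SE as well. For members with low counts, such as ADM and ANKRD37, the SE and its 95% interval may therefore be too narrow. Members with a mean under 100 have no estimate without shrinkage here.

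Identifiers were matched without version to GENCODE 29 (13877 of 13885). The trend was a quadratic least-squares fit of the log2 fold change on GC content, log10 length and log10 mean. Starts and promoters came from RefSeq (GRCh38.p14). Changed means an adjusted p under 0.05 in the authors' DESeq2 output. Named were all called members, their isozymes and up to 4 genes per further list and direction by smallest adjusted p; further members complete the counts, and some genes that the counts include are not reported here by name. Members and lists were chosen with earlier results of these data known. The calculation was tested on simulated data whose noise equalled the deposited SE and whose trend followed GC content alone. The real Wald statistics have a robust SD of 2.44 and the real trend also involves length. The simulation therefore checks the code and cannot show how many calls in these data are false. Python 3.11.15, with matplotlib 3.10.9, pandas 2.3.3, scipy 1.17.1 and numpy 2.4.6, was used.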

Additional observations from a re-analysis of the deposited data

How the results depend on the processing

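No paired analysis was possible because the table holds the authors' comparison and no values per sample; for the same reason no replicate could be left out. Counts are given as lower and then higher for glycolysis, the TCA group and the HIF group, deposited as 2 and 4, 5 and 5, and 2 and 3. At an adjusted p of 0.01 glycolysis had 1 lower and 1 higher, and the TCA group 3 lower. With an absolute log2 fold change of at least 0.5 glycolysis had 0 lower and 2 higher, and the TCA group 3 lower. With the trend removed, 1 glycolysis, 3 TCA and 1 HIF member were lower, and GAPDH reversed to 0.15; the cause was not tested. Against an absolute change of 0.3, glycolysis had 0 and 0, the TCA group 3 and 2, and the HIF group 1 lower. With Wald statistics scaled to their robust SD of 2.44, a spread that true changes enlarge, 0 members passed in either direction in any group, and PCIF1, at -0.82, had an adjusted p of 0.744 from the DESeq2 values. Shifts of 0.1 of all fold changes, chosen after seeing the data, gave 0 lower glycolysis and 3 lower TCA members when shifted up, and 4 lower and 1 higher glycolysis members when shifted down. A threshold of 0.1, centring on the median and a minimum mean of 100 left every count within 1.5 times. PCK2, IDH1, IDH2, IDH3A, HIF1A, EPAS1 and NDRG1 passed under every alternative named except the scaling to the robust SD. The share of all genes called is given only as deposited and with the trend removed. In the other settings a fall in the counts of a group cannot be told from a fall across all genes. Counting error per library could not be assessed.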
